A study of Mus musculus with 4 samples.

Results

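The deposited list of REST-bound regions in mouse embryonic stem cells (ESCs) held 2504 regions, and 267 of them (10.7%, exact 95% binomial interval 9.48 to 11.9%) lay near another listed region. These clustered regions were chosen by position in the list itself: a region was taken when the gap from its end to the start of a neighbour, on either side of it on the same chromosome, was at most 10 kb. They formed 126 clusters. REST was immunoprecipitated from the wild type N6 ESC line of the C57BL/6 strain with a rabbit antiserum to its C-terminal end, and the co-purified DNA was sequenced. The culture medium contained leukemia inhibitory factor, and the feeder layer of mouse fibroblasts was removed by passaging before chromatin was prepared. The series held 4 samples. H3K27me3 in wild type ESCs, H3K27me3 in ESCs lacking REST, and input DNA were not analysed here. DNA of all replicates was combined in 1 library, so no spread between replicates could be measured, the wild type cells are 1 line, and background was not measured. Each region carried only a rank, where 1 is the strongest, and how many reads stand behind it was unknown. Intervals cover only the counting error over regions or genes.

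REST is a zinc finger repressor that keeps genes of mature neurons silent in stem cells and in tissues outside the nervous system, and it recruits CoREST, Sin3 and histone deacetylases to the DNA it binds. Its recognition element, the RE1, is a left and a right element held a fixed short distance apart. REST is also known to bind sites in which the elements lie farther apart or in which only one of them is present, and several RE1s can lie near a single gene.

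The left element used was TTCAGCACC. The right element, GGACAGCGCC, was the commonest base at each place beyond the 551 exact copies of the left element in the list. A full RE1 was a left element, 2 free bases and a right element with at most 5 mismatches over the 19 defined bases, on either strand. Regions without one were classed by whether both elements, each with at most 1 mismatch, lay 3 to 20 bases apart (wider gap). The rest were classed by a left element with at most 1 mismatch, otherwise by such a right element, or as having no match. Spacings below 2 free bases were not searched. A region classed by a left or a right element could thus hold the other at another spacing or with more mismatches. No match means only that these limits were not met, so such a region could hold an RE1 with more mismatches. The sites that follow show what neighbouring regions of a cluster held. They are written 5′ to 3′ on the strand of the RE1, from mm9, with capitals for bases that match the elements. Only 3 clustered regions held an RE1 without a mismatch, those of Lhx3, Bcan and Unc79.
Lhx3, rank 257, chr2:26063792-26063812, minus strand: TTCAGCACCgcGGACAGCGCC
Lhx3, rank 567, chr2:26060815-26060840, plus strand: TTCAGCACCcaggcacGGACAGCGCC
Bcan, rank 890, chr3:87797583-87797603, plus strand: TTCAGCACCagGGACAGCGCC
Unc79, rank 1947, chr12:104187967-104187987, minus strand: TTCAGCACCggGGACAGCGCC
At Lhx3, a LIM homeobox gene of motor neurons and the pituitary, both elements were perfect in each region, but those of the lower ranked region were separated by 7 bases. The following pairs come from clusters in which both regions held a full RE1, and they show that the copies in a cluster were not the same sequence and could lie on either strand.
Chga, rank 184, chr12:103793448-103793468, plus strand: TTCAGCACCtcGGACAGCaCC
Chga, rank 674, chr12:103788904-103788924, plus strand: TTCAGgACCacGGACAGCGaC
Neurod1, rank 405, chr2:79294484-79294504, minus strand: TaCgGCACCatGGACAGCtCC
Neurod1, rank 764, chr2:79300982-79301002, plus strand: aTCAGCACCgtGGACAaCGCC
Slc12a5, rank 397, chr2:164792070-164792090, minus strand: TTCAGgACCttGGACAGaGtC
Slc12a5, rank 477, chr2:164794149-164794169, minus strand: TcCAGaACCgtGGACAGCGCC
Srrm4, whole region of rank 214, chr5:116995806-116996103, plus strand, RE1 in capitals: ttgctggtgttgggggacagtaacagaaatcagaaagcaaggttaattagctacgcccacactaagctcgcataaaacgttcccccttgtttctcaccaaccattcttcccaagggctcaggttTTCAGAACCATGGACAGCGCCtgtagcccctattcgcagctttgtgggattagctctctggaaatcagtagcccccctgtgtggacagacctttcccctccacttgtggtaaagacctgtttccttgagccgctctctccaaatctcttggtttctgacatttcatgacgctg
Srrm4, whole region of rank 496, chr5:117004002-117004280, plus strand, RE1 in capitals: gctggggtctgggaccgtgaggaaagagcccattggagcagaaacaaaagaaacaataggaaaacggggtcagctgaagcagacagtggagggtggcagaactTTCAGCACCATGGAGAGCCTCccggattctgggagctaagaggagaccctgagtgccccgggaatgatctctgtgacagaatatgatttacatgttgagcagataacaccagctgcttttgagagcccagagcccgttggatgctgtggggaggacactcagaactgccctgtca
The most enriched region of the whole list was clustered as well. It lay 12.4 kb upstream of Igsf21, which encodes a synaptic adhesion protein with immunoglobulin domains, and it held 3 full RE1s with 4 or 5 mismatches each, all on the minus strand.
Igsf21, rank 1, chr4:139815037-139815057: cTCAtCACCatGGACAGaGCt
Igsf21, rank 1, chr4:139815143-139815163: TcaAtCACCatGGACAGaGCt
Igsf21, rank 1, chr4:139815169-139815189: TcCtctACCatGGACAGaGCC

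Most clusters were pairs. There were 116 clusters of 2 regions, 7 of 3, 1 of 4 and 2 of 5, on 19 chromosomes, with 21 on chromosome 2, 18 on chromosome 11 and none on the X chromosome. These counts were not set against the number of listed regions on each chromosome. The 141 gaps between adjacent members ran from 212 bp, at Pex5l, to 10000 bp, at Pcsk2, with a median of 3556 bp. The clusters spanned a median of 4.47 kb. The gap limit did not fall at a break in the spacing. The widest gaps just inside it were 9596 bp at Neurod2, 9765 bp at Rbfox3, 9896 bp between the regions of Ina and Nt5c2, 9949 bp at Lhfpl5 and 10000 bp at Pcsk2. Among the narrowest just outside were 10199 bp at Slc32a1, 10550 bp between regions of Mreg and Pecr, 10596 bp between the pair of clusters at Brsk2, and 10744 bp at Ccl17. With a limit of 2 kb the list held 42 clusters, and with 20 kb it held 195.

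Ranks and widths come from the same peak calling as the positions that chose the members, and they are given as a description. The median rank was 1099 in clustered regions and 1269 in the other 2237, and the median width was 273 bp against 262 bp. Members ranged over nearly the whole list, from rank 1 to rank 2471. The best 100 ranks held 13 clustered regions, each in a cluster of its own. The members of the 116 pairs differed by a median of 806 ranks, 15 pairs by under 200 and 39 pairs by over 1000. Both members were in the upper ranks, those better than the median of the whole list, in 43 pairs, 1 member was in 50, and neither was in 23. Pairs drawn at random from the list were not examined, so these values cannot be called particular to clusters.

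**Figure D1:**
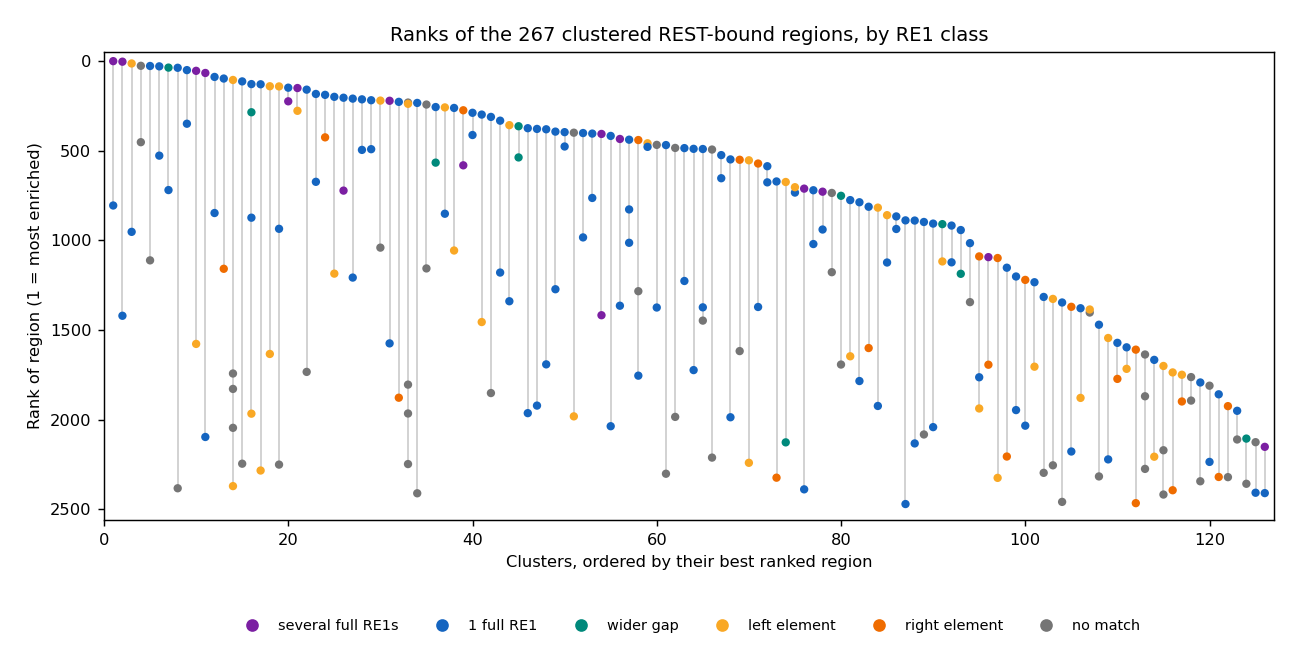
Rank of each clustered region (vertical axis, 1 at the top for the most enriched) in the 126 clusters, ordered along the horizontal axis by their best ranked region. Each point is a region, coloured by RE1 class, and a grey line joins the members of a cluster. The members of a pair lay a median of 806 ranks apart, with no random pairs for comparison. The grey points with no match lie mostly low, at a median rank of 1840.5.

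Among the clustered regions, 128 held 1 full RE1 and 16 held several. A wider gap was found in 10, a left element without it in 39, a right element in 22, and no match in 52. A full RE1 was thus present in 144 of 267 clustered regions (53.9%, interval 47.8 to 60.0%) and in 1310 of 2237 others (58.6%, 56.5 to 60.6%), a difference that did not pass the test (Fisher's exact test, two-sided, adjusted p = 0.209 over 7 shares). No match was found in 19.5% against 17.2% (exact adjusted p = 0.406), and several full RE1s in 5.99% against 3.58% (exact adjusted p = 0.145). The last share passed when 1 region was taken per cluster (exact adjusted p = 0.0183), was 4.79 points higher with up to 6 mismatches allowed, and differed from the other regions by -0.234 points with at most 3. At a gap limit of 2 kb the full RE1 share differed by -17.4 points and the share with no match by 14.6 points (exact adjusted p = 0.00403 for each). In the 10 with a wider gap, the free bases numbered 7 to 10. This count depends on the mismatch limit. At Slco4a1, Nefh, A430005L14Rik and Smpd3 a region classed by a left element also held a right element with more mismatches at such a spacing. How often single elements arise by chance was not measured.

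The mix within clusters was broad. Every member held a full RE1 in 42 clusters, some did in 57, and none did in 27. The commonest pair, seen 30 times, was 1 full RE1 in each region. Next came 1 full RE1 in the better ranked region and no match in the other, seen 14 times. Both regions were of the same class in 41 of 116 pairs. In 6 pairs neither region had any match. Where adjacent members both held a full RE1, the best match of each lay on the same strand in 20 of 42 clusters (47.6%, 32.0 to 63.6%), which did not differ from an even split (exact binomial test, two-sided, p = 0.878).

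**Figure D2:**
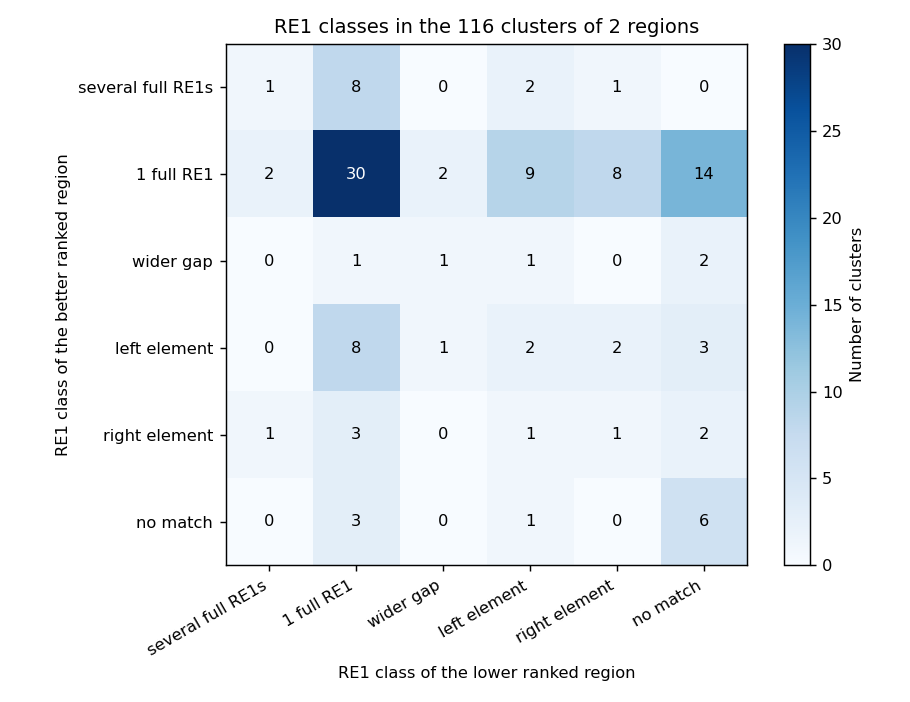
Number of clusters of 2 regions for each combination of RE1 class, with the better ranked region in rows and the lower ranked region in columns, and the count printed in each square. The row for 1 full RE1 holds 30 pairs with 1 full RE1 in the other region and 14 with no match there, whereas only 3 pairs had no match in the better ranked region and 1 full RE1 in the other.

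In mixed pairs the region with the full RE1 was more often the better ranked. In the 52 pairs with a full RE1 in only 1 region, that region was the better ranked in 36 (69.2%, 54.9 to 81.3%, exact binomial sign test, two-sided, p = 0.00779). Pairs such as Rltpr, with ranks 114 and 2246, and H2-D1, with ranks 38 and 2383, had the full RE1 in the better ranked region and no match in the other. In the other 16 pairs the order was turned round. At Atp2b2 the region of rank 14 was classed by a left element while a full RE1 lay in its neighbour of rank 953. The same direction of rank is seen in the regions outside clusters, where the median rank was 1057 with 1 full RE1 and 1816 with no match. Within the upper ranks the share was 50%, and with up to 6 mismatches it was 63.4% (exact p = 0.117).

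Regions very close to a neighbour less often held a full RE1. It was present in 38 of the 92 members with a neighbour within 2 kb (41.3%, 31.1 to 52.1%) and in 106 of the 175 with a wider nearest gap (60.6%, 52.9 to 67.9%, Fisher's exact test, two-sided, p = 0.00302). The share was lowest, at 7 of 29 regions (24.1%), where the gap was at most 500 bp. Without the neighbours under 500 bp apart the difference was -11.4 points and did not pass the test (exact p = 0.138). It was also lost with at most 4 mismatches (exact p = 0.153), with at most 3 (p = 0.570) and in the upper ranks (p = 0.640). Members of a cluster share their locus and their gap, so the test counts them as more independent than they are. The members at most 500 bp from a neighbour had a median rank of 1601, and whether such pairs are 1 bound site split in the list was not tested. Neighbouring sequences were rarely copies of each other: adjacent members were alike over at least 50 bases at 80% identity or more in 2 of 141 pairs.

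**Figure D3:**
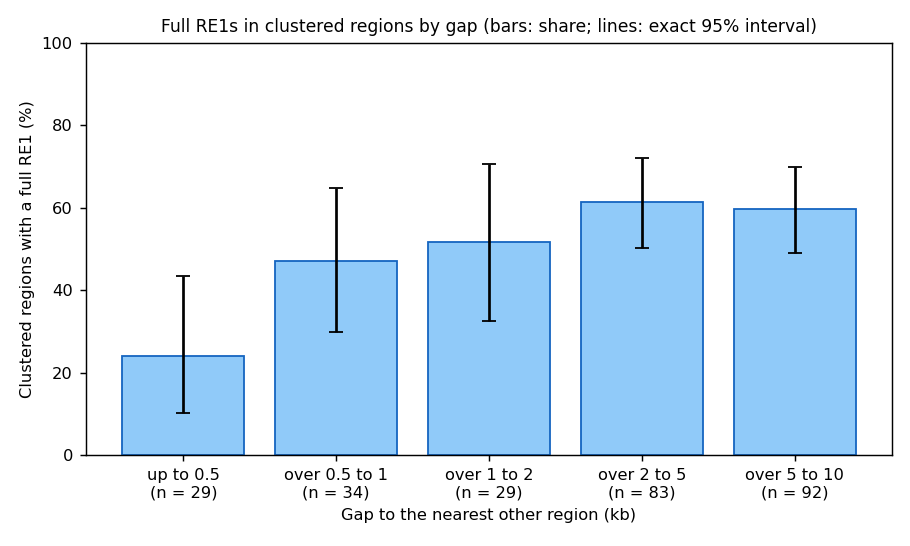
Share of clustered regions with a full RE1 (vertical axis, percent) by the gap to the nearest other region (horizontal axis, kb), with exact 95% binomial intervals and the number of regions under each bar. The share was 24.1% up to 0.5 kb, and 61.4% and 59.8% in the last 2 groups.

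One of the alike pairs lay in an intron of Trappc9, 91.5 and 92.9 kb upstream of Kcnk9, which encodes a background potassium channel. Its regions ranked 2410 and 2152 and aligned at 95.4% over 108 bases in opposite orientation. They held the same RE1 on opposite strands, letter for letter, and the region of rank 2152 held a further full RE1.
Kcnk9, rank 2410, chr15:72468138-72468158, minus strand: gTCAGCACCttGGACAGaGat
Kcnk9, rank 2152, chr15:72469592-72469612, plus strand: gTCAGCACCttGGACAGaGat
Repeats also occurred inside a region. The region of rank 582 at 18.3 kb upstream of Jakmip1, a microtubule-associated protein of neurons, held 4 full RE1s on the plus strand, of which the last 3 were identical.
Jakmip1, chr5:37401152-37401172: cTCAGCACCtcGGAgAGCtCa
Jakmip1, chr5:37401232-37401252: TTCAGCACCtcGGAgAGttCa
Jakmip1, chr5:37401315-37401335: TTCAGCACCtcGGAgAGttCa
Jakmip1, chr5:37401397-37401417: TTCAGCACCtcGGAgAGttCa
Its neighbour of rank 275 was classed by a right element.

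Clustered regions lay closer to genes than the others. The midpoint lay at most 5 kb from a protein-coding transcription start site (TSS) in 112 of 267 clustered regions (41.9%, 36.0 to 48.1%) and in 652 of 2237 others (29.1%, 27.3 to 31.1%), an odds ratio of 1.76 (Fisher's exact test, two-sided, adjusted p = 0.000215). With 1 region per cluster the difference was 16.1 points (exact adjusted p = 0.00142). CpG-rich sequence, meaning at least 50% GC and an observed to expected CpG ratio of at least 0.6, made up 47 clustered regions (17.6%, 13.2 to 22.7%) and 227 others (10.1%, 8.93 to 11.5%), an odds ratio of 1.89 (exact adjusted p = 0.00194, and 0.0055 with 1 region per cluster). Neither call held among the upper ranks, with 96 in clusters, where the differences were 12.5 and 9.07 points (exact adjusted p = 0.0640 for each). The CpG call was also lost at a gap limit of 20 kb, with a difference of 3.01 points (exact adjusted p = 0.257).

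The share within 1 kb of a TSS did not pass the test, at 18.0% against 14.3% (exact adjusted p = 0.209). It was 11.4 points higher than in other regions once the TSSs of genes of all biotypes were counted (exact adjusted p = 6.88e-05). The intergenic share was 45.7% against 44.5% (exact adjusted p = 0.745). By midpoint, 122 clustered regions were intergenic, 92 intronic, 22 in the 1 kb upstream of a TSS, 17 in coding exons, 8 in 3′ UTRs and 6 in 5′ UTRs. Over 100 kb from any TSS lay 5.99% of clustered regions and 17.9% of others. In 35 clusters with 1 nearest gene, members lay both upstream and downstream of their nearest TSS. That TSS could be a different one of the gene for each member, as in the complete pair of Brsk2. A member lay within 1 kb of a TSS in 36 clusters, and 43 clusters had no TSS within 20 kb. All members were nearest to the same gene in 113 of 126 clusters (89.7%, 83.0 to 94.4%). The gap rule itself places members close together, so this share is a description and was not tested.

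**Figure D4:**
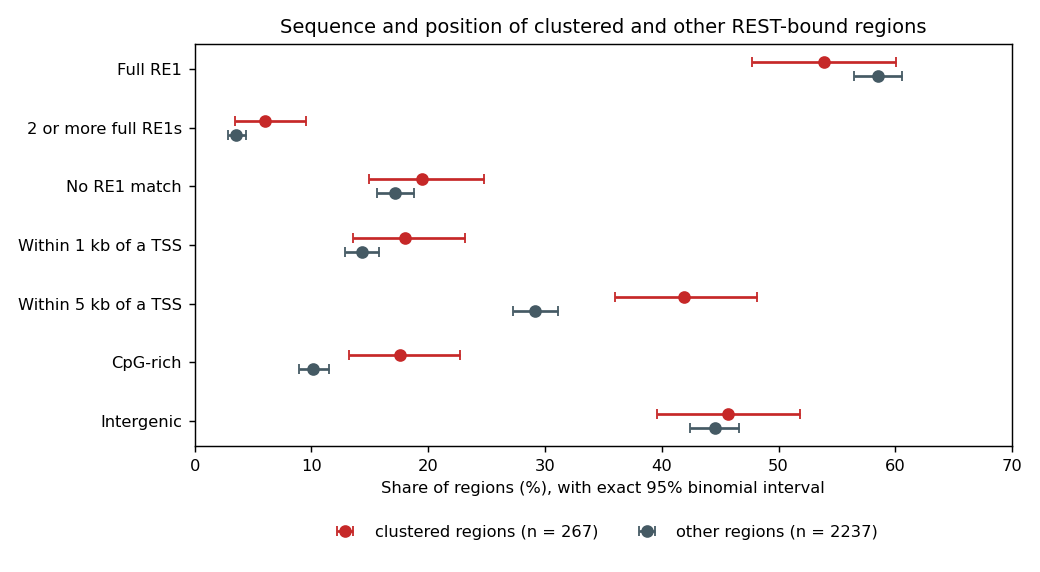
Share of clustered (red, n = 267) and other (grey, n = 2237) regions with each sequence or position feature (horizontal axis, percent), with exact 95% binomial intervals. The intervals are apart within 5 kb of a TSS, at 41.9 and 29.1%, and for CpG-rich sequence, at 17.6 and 10.1%, and they overlap elsewhere.

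Each of the 7 neuronal gene lists examined had at least 1 member near a cluster. A clustered region lay within 20 kb of a TSS in 133 of 22232 protein-coding genes (0.598% of all genes). Of the neuropeptide and secretory granule genes 4 of 26 had one, as did 6 of 49 axon, adhesion and cytoskeleton genes, 4 of 34 neuronal transcription factors and 3 of 18 neuronal RNA-binding proteins. In the lists of channels, vesicle release and receptors the counts were 1 of 32, 2 of 37 and 2 of 37. Of 30 housekeeping genes 1 had one, Hspa8, a share (3.33%) near that of the channel genes (3.125%). None was found in 43 Polycomb developmental regulators, 26 pluripotency genes, 22 genes of the REST complex or 12 replication-dependent histone genes, counts of 0 for which the exact upper limits were 8.22, 13.2, 15.4 and 26.5%. No test was made of these lists. REST regions of any kind lay within 20 kb of 18 of the 32 channel genes and 15 of the 26 granule genes, against 8.20% of all protein-coding genes. Such regions also lay near 13 of the 30 housekeeping genes and 7 of the 26 pluripotency genes, so counts above that share were not confined to neuronal lists. For Polycomb regulators, the REST complex and histones the counts were 4 of 43, 2 of 22 and 1 of 12. Of the 1822 genes with any REST region within 20 kb, 133 had a clustered one. Among list genes with any region, it was 1 of 18 channel, 2 of 21 vesicle release, 2 of 20 receptor and 1 of 13 housekeeping genes. It was 4 of 15 granule, 6 of 17 axon, 4 of 15 transcription factor and 3 of 10 RNA-binding protein genes. The share of all genes is thus a low background for lists rich in REST regions.

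The 4 secretory granule genes with a cluster each had a member within 1 kb of the TSS. At Vgf, a nerve growth factor inducible peptide precursor, regions ranked 149 and 225 lay 0.030 and 0.933 kb downstream of the TSS, the first with 1 full RE1 and the other with 2. At Chga, which encodes chromogranin A, the region of rank 184 lay just inside the gene and that of rank 674 was 4.24 kb upstream. Every region of both genes had a full RE1, which is called a complete pair here. Pomc, the precursor of opioid and melanocortin peptides, had a full RE1 in an intron at rank 813 and a right element 345 bp away at rank 1601. Pcsk2, a prohormone convertase, had the reverse order of rank, with a left element at rank 259 and a full RE1 at rank 852, 9.45 kb upstream.

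Clusters at genes of vesicle release and of the synapse were of every mix. At Unc13a, whose product primes vesicles, the region of rank 130 covered the TSS with a full RE1 of 5 mismatches and an intronic region of rank 2284 held a left element. Cplx3, a complexin, showed the same mix at ranks 1379 and 1879. At Rph3a, a Rab3 effector, the better ranked region, of rank 37, had a wider gap of 7 free bases and its neighbour of rank 720 had the full RE1. The regions were 69.3 and 59.4 kb from the TSS. Madd, a Rab3 exchange factor, had a full RE1 at rank 1859 and a right element at rank 2320. Iqsec3, an exchange factor of inhibitory synapses, had 2 full RE1s at rank 67 and 1 at rank 2097. A full RE1 was present in each region at Gprin1 and Sncb, at ranks 89 and 848, where Sncb encodes beta-synuclein. Complete pairs also lay at Cbln4 and Nptxr, which encode a cerebellin and a pentraxin receptor, with ranks 490 and 1724 and ranks 375 and 1964. At Elfn2, a leucine-rich repeat protein of the postsynapse, the partner of the full RE1 at rank 234 was a region of 85 bp with no match, at rank 2411.

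Axon and cytoskeleton genes gave some of the best ranked clusters. Stmn3, a stathmin that acts on microtubules, had a full RE1 at rank 28, and 9215 bp away a region of rank 1112, nearest to Gmeb2, had no match. At Celsr3, an atypical cadherin of axon guidance, regions ranked 51 and 350 flanked the TSS at 0.705 and 0.400 kb, and each had a full RE1. At Nefh and Crmp1, the neurofilament heavy chain and a mediator of collapsin signals, full RE1s of rank 200 and 262 were partnered by left elements of rank 1186 and 1057. Ina, which encodes internexin, and the adjacent Nt5c2 had regions ranked 289 and 413, each an intronic full RE1. Cntnap2, a neurexin family protein of the axon, had ranks 1153 and 2206 at both sides of its TSS, with a full RE1 in the better ranked and a right element in the other.

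Among the adhesion and extracellular matrix genes named here, Bcan, Nxph1, Cdh22, Epha10 and Igsf21 had complete pairs. Bcan, brevican of the brain matrix, held the perfect RE1 shown before at rank 890 and another full RE1 at rank 2133. Nxph1, a neurexin ligand, had ranks 721 and 1021, and the cadherin gene Cdh22 ranks 918 and 1123, all with a full RE1. Epha10, an Eph receptor, was the only gene whose pair held several full RE1s in both regions, at ranks 407 and 1418. Megf11 had ranks 734 and 704 and Sez6, a dendritic protein, 2408 and 2126, with a full RE1 in the first of each and a left element and no match in the others. Igsf21 had a full RE1 at rank 806 beside the triple site of rank 1.

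Among receptors and their partners, Grik3 had 2 clusters. At Chrnb2, the beta subunit of neuronal nicotinic receptors, the region of rank 98 lay 0.143 kb inside the gene with a full RE1 of 1 mismatch, and a right element lay 5046 bp away at rank 1159. Drd2, a dopamine receptor, had a full RE1 at rank 228 and a right element at rank 1878. Ric3, a chaperone of nicotinic receptors, had a right element at rank 1899 and a left element at rank 1750. The kainate receptor gene Grik3 had a cluster in an intron, with a left element at rank 1545 and a full RE1 at rank 2222, and a complete pair 176 kb from its TSS, at ranks 210 and 1208. The orphan receptor gene Gpr158 had a left element in each region, at ranks 141 and 1634, and Gpr26 had a wider gap at rank 752 and no match at rank 1693.

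Both regions of Slc12a5, the neuronal chloride exporter KCC2, held a full RE1, at ranks 397 and 477. So did both at Kcnj6, a G protein gated potassium channel, at 394 and 1273, and at Unc79, a subunit of the sodium leak channel complex, at 1202 and 1947. Atp2b2, a calcium pump, combined ranks 14 and 953 as described. Kcnip2, which binds voltage-gated potassium channels, had a full RE1 at rank 1316 and no match 243 bp away at rank 2297. Pex5l, a partner of HCN channels, had the narrowest gap of all, 212 bp, between ranks 2106 and 2358, with a wider gap and no match. Slco4a1, an organic anion transporter, had a left element at rank 459 and a full RE1 at rank 479, 45.0 and 38.3 kb upstream.

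Among transcription factors, Neurod1, which drives neuronal differentiation, had ranks 405 and 764 with a full RE1 in each, and Pou4f2, of retinal ganglion cells, had ranks 402 and 984 likewise. Neurod2 had a full RE1 at rank 943 and a wider gap at rank 1187, both downstream, and Lhx3 had this mix at ranks 257 and 567. At Skor2, a corepressor of Purkinje cells, both regions had a wider gap, at ranks 538 and 364, the only such pair. Hes3 and Gpr153 shared a complete pair at ranks 381 and 1692. Camta1 had 2 complete pairs in its introns, at ranks 333 and 1180 and at ranks 907 and 2042. Fosb had a right element at rank 1371 and a full RE1 at 2178, and Pura a full RE1 at 1667 and a left element at 2207. Between Pou2f2 and D930028M14Rik a full RE1 of rank 189 and a right element of rank 426 were present.

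Clusters at genes of neuronal RNA-binding and splicing proteins held a full RE1 in at least 1 region, apart from one cluster of Rbfox3. Srrm4, a splicing factor whose known targets include REST itself, had ranks 214 and 496 with a full RE1 in each. Celf4, a neuronal translation and splicing regulator, had the region of rank 4, which held 4 full RE1s, and a second full RE1 at rank 1421. The Hu proteins Elavl3 and Elavl2 had full RE1s at ranks 1124 and 898, partnered by a left element of rank 860 and by no match at rank 2083. Rbfox3, whose product is the neuron marker NeuN, had 2 clusters in its introns. One held a left element, a full RE1 and a right element at ranks 1938, 1764 and 1090. The other was classed as a left element and a wider gap at ranks 675 and 2127. In the region of rank 675 a right element with 1 mismatch followed the left one with no free base between, a spacing not searched. The region of rank 1938 in the first cluster held this arrangement too, with more mismatches in the right element.

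Clusters at signalling genes were of the same kinds. Cdk5r2, an activator of the kinase Cdk5, had 2 full RE1s at rank 723 and 1 at rank 205. The polarity kinase Brsk2 had one cluster with a left element at rank 1118 and a wider gap at rank 910, and a complete one farther into its locus, at ranks 1987 and 549. Complete pairs lay at Pde2a (525 and 654), Rap1gap (486 and 1227) and Ptchd2 (587 and 677), and at the small GTPase gene Rasl10b with Gas2l2 (492 and 219). Anks1b, Mtus2 and Smpd3 each combined a full RE1 with a region classed by a left element, at ranks 1340 and 358, 776 and 1647, and 1597 and 1717. None of these left elements was the only trace of an RE1. The region of rank 358 held a site at the RE1 spacing with more mismatches than the limit. In that of rank 1647 a right element with 1 mismatch lay 1 free base from the left one, a spacing not searched. That of rank 1717 held a right element with more mismatches, farther from the left one. Xkr7 had 2 full RE1s at rank 55 and a left element 371 bp away at rank 1578. Dyrk1a, Rltpr, Edn2 and Prnd each joined a full RE1, at ranks 1347, 114, 469 and 1016, with a region without a match, at ranks 2459, 2246, 2302 and 1345. Reep2 had a right element in each region, at ranks 2466 and 1610.

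Other clusters lay at genes outside these groups. Klhl7 had 2 intronic full RE1s at ranks 30 and 528, and Zswim4 had 2 full RE1s at rank 1094 with a right element at 1694. Regions beside the TSSs of Zfp672 and Sh3bp5l held a right element and a full RE1 at ranks 1773 and 1572. Chd9 had a full RE1 at rank 1471 and no match at 2317, as H2-D1 had at 38 and 2383. Ankhd1 and Npm2, the latter over exons of Xpo7, joined a full RE1 of rank 1234 and 1924 with a left element of rank 1705 and 818. Pigs, next to Unc119, had a full RE1 at rank 672 and a right element at 2324. Fam193b and Tmed9 had full RE1s at ranks 712 and 2389, and Tcl1 at 222 and 1575. The 6330407J23Rik and Gm9996 pair was complete at ranks 937 and 867. Man2a2 with Fes had left elements at ranks 2241 and 554. Krt10 had a left element at rank 2325 and a right element at 1099, and 1700001P01Rik had no match at 2255 and a left element at 1327.

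A further group lay mostly outside genes. Complete pairs lay near Tasp1 (435 and 1365), Tti1 (788 and 1785), Accsl (889 and 2471), C130026L21Rik (379 and 1922), 4930569F06Rik (418 and 2037) and 1700012A03Rik (940 and 729). The pair near 4930591A17Rik, 214 and 221 kb from its TSS, joined 2 full RE1s at rank 151 with a left element at rank 278. Near Ndufb3 and Gm9797 a full RE1 at ranks 1951 and 2236 had a neighbour with no match at ranks 2111 and 1811. Near Fam161a a full RE1 at rank 1375 and no match at rank 468 were 236 bp apart, 111 kb downstream of the TSS. The region of rank 468 did hold a site at the RE1 spacing, with more mismatches than the limit. The neighbour of a full RE1 was a right element near Polg (1372 with 572) and Ifnar2 (2034 with 1221) and a left element near A430005L14Rik (299 with 1456). No full RE1 was found near Mpped2 (no match at 2321, a right element at 1925), Hormad2 (no match at 1618, a right element at 551) or Zfp507 (a left element at 1737, a right element at 2394). Neither region had a match near Gtsf1l (494 and 2212) or at the predicted genes Gm10801 and Gm10800 (1178 and 736). The same held beside Hspa8, a constitutive heat shock protein, where regions of rank 1157 and 243 were 816 and 784 bp wide, 280 bp apart, and 4.22 and 5.30 kb downstream of the TSS.

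The 10 clusters of more than 2 regions held 35 regions. Zdhhc22, a palmitoyltransferase gene, had 4, with full RE1s at ranks 129 and 874, a wider gap of 8 free bases at 286 and a left element at 1967, and those of rank 129 and 286 flanked the TSS. Near Mrm1, 90.1 to 95.1 kb downstream, 3 regions ranked 439, 828 and 1014 all held a full RE1, the only complete trio. Nell2, a secreted neural glycoprotein, had a right element at the promoter at rank 441, no match at 1284 and a full RE1 at 1755. Lhfpl5, of the mechanotransduction complex of hair cells, had a full RE1 at the promoter at rank 936, a left element at 142 and no match at 2251. At Ern1 and Tex2 the 3 regions ranked 1637, 1870 and 2275 had no match, and the later 2 by position lay in the Tex2 3′ UTR. The remaining clusters of this size, except the Rbfox3 trio, lay on or beside noncoding RNA genes.

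**Figure D5:**
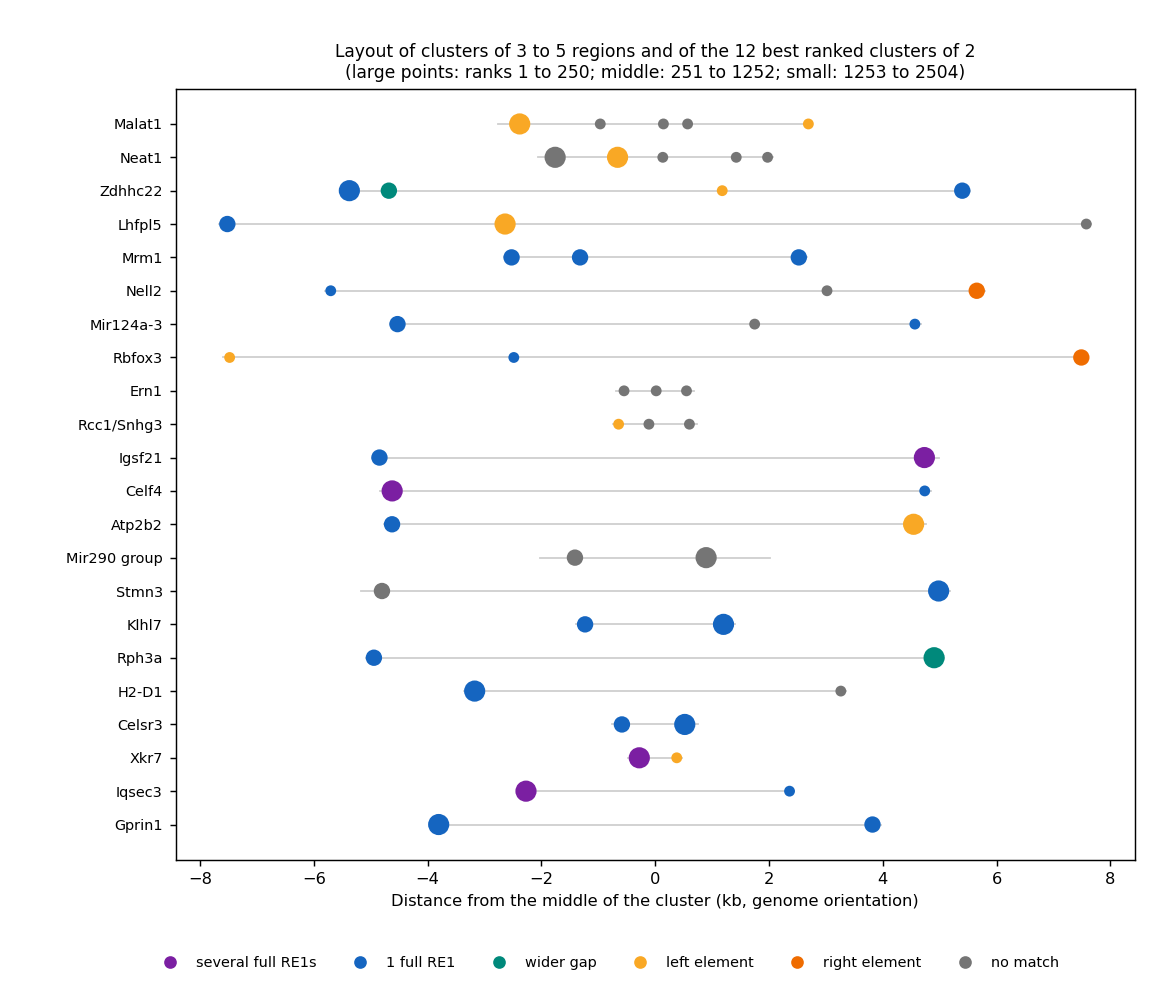
Position of each region (horizontal axis, kb from the middle of its cluster) in the 10 clusters of 3 to 5 regions and in the 12 best ranked pairs, 1 line per cluster named by its nearest protein-coding gene or by the noncoding gene it overlaps or spans. Points are coloured by RE1 class and sized by rank, with the largest for ranks 1 to 250. The Malat1 and Neat1 lines hold 5 regions each with no blue or purple point, whereas Mrm1 has a full RE1 at all 3 points.

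Noncoding RNA genes underlay 9 of the 27 clusters in which no region held a full RE1. A clustered region overlapped an annotated noncoding gene in 40 of 267 cases (15.0%), against 103 of 2237 others (4.60%). For regions with no match the counts were 18 of 52 (34.6%) and 30 of 384 (7.81%). This comparison was made after the values were seen and was not tested. The 40 regions came from 21 clusters, and Malat1 and Neat1 each gave several of the 18. Regions of the same locus are not independent. Such an overlap was present in 4 of the 42 clusters with a full RE1 in every member and in 8 of the 57 mixed ones. Without the regions on noncoding genes, the difference in the share with no match, clustered minus other, was -1.61 points. Depth and input DNA at these loci were not analysed here, and the part of either in these regions was not tested.

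The longest runs lay on chromosome 19 at Malat1 and Neat1, long nuclear RNAs abundant in many cell types. The Malat1 cluster had 5 regions at ranks 106, 1743, 1829, 2046 and 2371. The region of rank 106 was 765 bp wide and lay beyond the 3′ end of Malat1, and the other 4 lay in it. The 5 Neat1 regions, nearest to Frmd8, ranked 232, 239, 1805, 1966 and 2248 and stood within 4.13 kb. None of the 10 held a full RE1: those of rank 106, 2371 and 239 had a left element and the other 7 had no match.

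Hosts of small nucleolar RNAs had clusters of the same kind. Snhg3, which overlaps Rcc1, had 3 regions at ranks 1701, 2171 and 2418 within 1.49 kb, the first with a left element and the others with no match. Gas5 had a region with no match at rank 1734, also over SNORD44, but a full RE1 stood 2248 bp away at rank 160, nearest to Zbtb37. Near Trpv2, a left element over 2410006H16Rik and Snord49b ranked 1982, and a region with no match over 4930443B20Rik ranked 400.

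Other clusters lay at genes of the spliceosomal RNAs U1, U2 and U5 and of the nucleolar RNA U3. On chromosome 4, 20.1 and 28.4 kb upstream of Kif2c, each region of a pair ranked 485 and 1985 overlapped a U5 gene and had no match. On chromosome 11 at Tex14, a pair ranked 1403 and 1386 overlapped 2 U1 genes and held no match and a left element. A second pair at Tex14, ranked 1763 and 1894, had no match and lay at the 3′ end of 1 U3 gene and beyond that of another, which it did not overlap. A U2 gene underlay a region with no match of rank 1852 near Tmem106a, whose neighbour of rank 312 held a full RE1. The U1 pair was the other alike pair of the list, at 89.1% identity over 55 bases. The printed regions begin inside each U1 gene, and the capitals that would mark an RE1 are absent.
U1 region of rank 1403, chr11:87236494-87236750, plus strand: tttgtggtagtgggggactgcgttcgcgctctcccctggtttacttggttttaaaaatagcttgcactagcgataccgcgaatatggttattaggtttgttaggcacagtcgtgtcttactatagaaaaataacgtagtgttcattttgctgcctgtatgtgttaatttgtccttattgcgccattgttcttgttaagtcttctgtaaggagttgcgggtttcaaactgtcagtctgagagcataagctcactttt
U1 region of rank 1386, chr11:87240263-87240536, plus strand: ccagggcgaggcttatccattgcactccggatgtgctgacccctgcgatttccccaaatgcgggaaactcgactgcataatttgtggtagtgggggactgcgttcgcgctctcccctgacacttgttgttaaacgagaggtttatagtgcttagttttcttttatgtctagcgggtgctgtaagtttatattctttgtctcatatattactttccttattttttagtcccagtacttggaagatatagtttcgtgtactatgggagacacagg
Because such genes have near-identical copies and only uniquely mapped reads were kept, regions inside them are uncertain.

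The clusters spanned 9 microRNA hairpins at 3 loci. The Mir290 group, microRNAs known to be abundant in ESCs, lay on chromosome 7 near Nlrp12 under regions of rank 27 and 453. The first, at 2246 bp, was the widest of the list and the other was 1215 bp wide. They were 575 bp apart and had no RE1 match. The hairpins Mir290, Mir291a, Mir291b and Mir292 were in the region of rank 453, and Mir293, Mir294 and Mir295 overlapped that of rank 27. A cluster at Mir129-2, nearest to Hsd17b12, had a left element at rank 221 and no match at rank 1041. At Mir124a-3, one source of the neuronal miR-124, 3 regions ranked 491, 1374 and 1448. Those of rank 491 and 1374 held a full RE1, the latter beside the hairpin. That of rank 1448 had no match, but held a site at the RE1 spacing with more mismatches than the limit. The nearest protein-coding gene was Ythdf1. At Nrf1 a region of rank 1793 in the 3′ UTR held a full RE1, and one of rank 2344 beyond the gene had no match. The Mir182, Mir96 and Mir183 hairpins were outside this cluster and lay within 10 kb of the region of rank 2344 only. RefSeq (GRCm38.p6) gave mature sequences for 8 of the 9 hairpins. The sequences used held only the 5p arm of Mir292, so its 3p seed was not compared. Both arms of Mir129-2 and the 3p arms of the ESC locus are shown first, with the seed, bases 2 to 8, in capitals, because the 3p arms of Mir291a, Mir294 and Mir295 share one seed. The 5p arms of the ESC locus follow, in which Mir290, Mir292 and Mir293 share a seed, as do Mir291a and Mir291b. The seeds of Mir129-2 were not among them.
mmu-miR-129-5p: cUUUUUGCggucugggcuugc
mmu-miR-129-2-3p: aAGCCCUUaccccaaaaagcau
mmu-miR-291a-3p: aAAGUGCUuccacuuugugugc
mmu-miR-294-3p: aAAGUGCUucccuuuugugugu
mmu-miR-295-3p: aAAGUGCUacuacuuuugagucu
mmu-miR-290a-3p: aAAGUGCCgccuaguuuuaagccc
mmu-miR-291b-3p: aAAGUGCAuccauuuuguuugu
mmu-miR-293-3p: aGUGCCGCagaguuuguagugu
mmu-miR-290a-5p: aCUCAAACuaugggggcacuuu
mmu-miR-292a-5p: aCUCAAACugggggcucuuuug
mmu-miR-293-5p: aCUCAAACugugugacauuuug
mmu-miR-291a-5p: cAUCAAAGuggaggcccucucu
mmu-miR-291b-5p: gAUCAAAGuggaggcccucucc
mmu-miR-294-5p: aCUCAAAAuggaggcccuaucu
mmu-miR-295-5p: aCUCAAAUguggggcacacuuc

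Long noncoding genes without a small RNA underlay the remaining overlaps, and they were of mixed RE1 content. A full RE1 was present over Gm16582 at Cdk5r2, Gm17325 at Neurod1, C630020P19Rik at Pcsk2, Gm14397 at Cdh22, Gm13849 near 1700012A03Rik, Gm13115 near A430005L14Rik, AI854517 near Polg, Gm14342 near Ythdf1 and Gm17245 near Smpd3. At Pcsk2 and Smpd3 the second region on the noncoding gene had a left element. Over Gm13327 at Gpr158 both regions had a left element, and over 1700047K16Rik at Zfp672 the region had a right element.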

How the data were processed

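The list of REST-bound regions deposited by the authors gave, for each region, a chromosome, a start, an end and a rank, with 1 for the most enriched. The values are positions and ranks from 1 pooled library, not a count or a signal, so depth and replicate spread were unknown. Fragments were selected by size and amplified by PCR before sequencing, and both steps could alter enrichment. The study's methods name Bowtie, unique reads only, and peaks shared by PeakRanger and MACS. BWA is the aligner in the submitters' notes. No version was given in the sources used here. Sites in repeated sequence may therefore be missing. The build was mm9, and sequence and genes came from NCBIM37 with GENCODE M1, which share its chromosomes. Starts were read as counting from 0, which could shift a sequence by 1 base.

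The 3 other samples were not analysed here. Regions were joined into clusters at gaps of at most 10 kb. RE1s, CpG content, midpoint annotation and distance to the nearest protein-coding TSS were computed in Python 3.11.15 with pysam 0.24.0, scipy 1.17.1 and biopython 1.88. The search was tested on simulated data. Fisher's exact tests were adjusted by the Benjamini-Hochberg method over 7 shares, with a threshold of 0.05, and exact binomial tests were used within clusters. Alternatives changed the gap limit, the mismatches, the window, the genes counted, and the regions used.

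Members and gene lists were chosen with earlier results of these data known. Clusters are named by the protein-coding gene nearest to their best ranked region. Described in full were clusters of 3 or more regions, the 15 with the best ranked member, the 8 best ranked with a full RE1 in all and in no member, the 5 with the smallest gap, and up to 4 genes of each list. Every other cluster is given by its ranks and classes. Some genes are not reported here. Noncoding genes were chosen after their values were seen.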

Additional observations from a re-analysis of the deposited data

How the results depend on the processing

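No paired analysis was possible because the list came from 1 pooled library, and for the same reason no replicate could be left out. Differences are clustered minus other regions, in percentage points. The excess within 5 kb of a TSS kept its direction and its call under every alternative run except in the upper ranks, better than the median of the list, where it was 12.5. The CpG-rich excess lost its call there, at 9.07, and at a gap limit of 20 kb, at 3.01. Several full RE1s passed the test with 1 region per cluster, at 5.15, and with up to 6 mismatches, at 4.79, but changed direction with at most 3 mismatches, at -0.234, and in the upper ranks, at -0.670. At a gap limit of 2 kb the full RE1 share (-17.4), the share with no match (14.6) and the share within 1 kb of a TSS (11.8) passed. The last also passed with TSSs of all biotypes, at 11.4, and was -2.63 in the upper ranks. The share with no match turned to -0.235 at 20 kb, -2.04 without neighbours under 500 bp, -0.313 with at most 3 mismatches and -1.61 without regions on noncoding genes, an alternative chosen after seeing the data. The intergenic share turned to -1.67 with 1 region per cluster, -1.21 at 2 kb, -0.372 at 20 kb, -4.39 with all biotypes and -1.38 without noncoding genes. The same-strand share crossed an even split at 53.3% with at most 4 mismatches and at 60.9% in the upper ranks. The better ranked region held the full RE1 in 63.4% of pairs with up to 6 mismatches and in 50% in the upper ranks, neither past the threshold. The lower RE1 share at gaps up to 2 kb lost its call with at most 3 mismatches (-3.63), at most 4 (-9.27), without neighbours under 500 bp (-11.4) and in the upper ranks (-4.83). Clusters with 1 nearest gene made up 77.8% with all biotypes, 97.6% at 2 kb and 81.5% at 20 kb. There were 42 clusters of 92 regions at 2 kb, 195 of 424 at 20 kb, and 47 of 96 in the upper ranks. The cause of these changes was not tested. With the depth behind each rank unknown, a difference in enrichment between members of a cluster could not be given an error.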
